A study of Homo sapiens with 4 samples.

Results

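The 10 genes described here were HDAC10, a histone deacetylase family member that acts on acetylated polyamines, and 9 genes that make, break down or regulate polyamines: ODC1, AMD1, SRM, SMS, SAT1, SMOX, PAOX, OAZ1 and AZIN1. They were chosen by symbol, through the Ensembl identifiers of a gene count table, and make up 10 of its 20348 genes. RNA sequencing was carried out on 2 human myeloid leukemia cell lines, K562 (from chronic myeloid leukemia in blast crisis, with erythroid features) and THP-1 (acute monocytic leukemia). Each line was grown with the vehicle DMSO or with periplocin, a plant cardiac glycoside, at 100 nM for 72 h. Each of the 4 conditions was sequenced as 1 library, so no comparison within a line has a replicate or can be set against a spread between cultures of that line. Only a fit over the 4 libraries, with the line as a term, gave p values, and those weigh a change against its variation between K562 and THP-1. The study asked how periplocin acts on leukemia cells and whether HDAC10 is its target.

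Polyamines are small positively charged molecules that bind nucleic acids and are needed for growth. Putrescine is made from ornithine by ornithine decarboxylase (ODC1), and is extended to spermidine and then spermine by SRM and SMS, which both use the aminopropyl donor supplied by AMD1. In the other direction SAT1 acetylates spermidine and spermine, PAOX oxidises the acetylated forms, and SMOX oxidises spermine directly. HDAC10 removes the acetyl group from N8-acetylspermidine and so returns spermidine to the pool. OAZ1 encodes an antizyme that binds ODC and delivers it to the proteasome, and AZIN1 encodes an inhibitor of that antizyme.

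Ratios are given on the log2 scale, periplocin over DMSO within a line, after scaling by the trimmed mean of M-values (TMM), which sets the bulk of genes to no change. The bracketed range after a ratio is a 95% exact conditional binomial interval, which covers counting error only. It compares the libraries, not the conditions. A gene was said to rise or fall when its ratio was at least 2-fold, and a gene was taken as expressed in a pair of libraries when its mean was at least 1 CPM (counts per 1000000 counts of the library). The 4 libraries held 16381149 to 20622694 counts. Mitochondrial genes took 5.62% of the K562 DMSO counts and 2.07% of the K562 periplocin counts, against 5.24% and 3.92% in THP-1. The K562 markers GATA1, TAL1, KLF1, HBG1 and HBZ were at 87.2 CPM or more in K562 DMSO and at 1.07 CPM or less in both THP-1 libraries, and 4 of these 5 rose in K562 with periplocin. Of 7 monocyte markers, CSF1R, FCER1G, TYROBP and MNDA were below 1 CPM in both K562 libraries, while LYZ, SPI1 and CD33 stood at 45.9, 20.7 and 22.1 CPM in K562 DMSO. What part these shifts had in the polyamine genes was not tested. In bulk RNA, fewer cells that express a gene and less RNA of it per cell cannot be told apart.

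In both lines ODC1 and SRM fell with periplocin and SAT1 rose, while HDAC10 itself moved by less than 2-fold. In K562, 4 of the 10 genes passed 2-fold, SAT1 upward and ODC1, SRM and SMOX downward. Across the 11862 genes expressed in K562, 20.4% passed 2-fold, 8.84% upward and 11.6% downward. In THP-1, 5 of the 10 genes passed, SAT1 and SMOX upward and ODC1, SRM and PAOX downward, beside 18.5% of 12341 expressed genes, 8.03% upward and 10.5% downward. The median log2 ratio of the 10 genes was -0.19 in K562 and -0.56 in THP-1, where the median over all expressed genes was -0.01 and -0.02. ODC1 and SRM were 2 of the 293 genes that fell in both lines, 2.72% of the 10779 genes expressed in both. SAT1 was 1 of 183 that rose in both, or 1.7%. The counting intervals excluded no change for 8 of the 10 genes in K562 and for all 10 in THP-1. Since they also did so for 77.4% and 76.8% of all expressed genes, these intervals say little about the polyamine genes in particular. The log2 ratios of the lines differed from each other by at least 2-fold for 2 of the 10 genes, SMOX with the higher ratio in THP-1 and PAOX with the lower. Of the 10767 genes compared in this way, 20.7% differed by as much, 11.1% higher and 9.59% lower in THP-1. The interval of that difference excluded 0 for all 10 genes and for 71% of all compared.

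**Figure D1:**
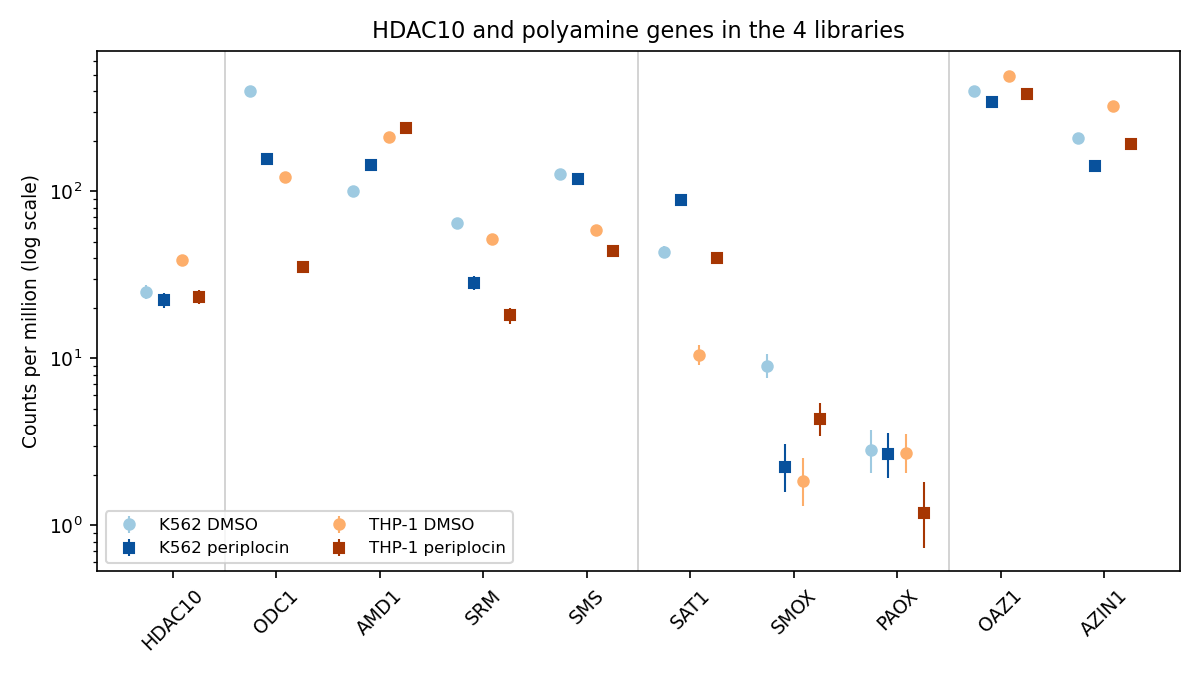
CPM (log axis) of HDAC10, the synthesis enzymes, the catabolic enzymes and the ODC regulators, separated by grey lines, in the 4 libraries. Points are single libraries and bars are exact 95% Poisson intervals of the count. ODC1 and SRM were lower and SAT1 higher with periplocin in each line, and SMOX moved in opposite directions.

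HDAC10 (ENSG00000100429, chr22:50245183-50251405, minus strand, GRCh38, 20 exons in its longest coding transcript) gave 408 counts with DMSO and 368 with periplocin in K562, while THP-1 gave 801 and 414. In CPM these were 24.9, 22.2, 38.8 and 23.4, so THP-1 DMSO stood above the other 3 libraries, which lay close together. The log2 ratio was -0.18 [-0.38, 0.03] in K562, an interval that included no change. In THP-1 it was -0.72 [-0.90, -0.55], short of 2-fold. The THP-1 ratio lay below the K562 ratio by -0.55 [-0.81, -0.28], and without treatment HDAC10 was higher in THP-1 by 0.76 [0.59, 0.94]. In the fit over the 4 libraries, which leaves 1 residual degree of freedom, edgeR's quasi-likelihood test gave HDAC10 a log2 change of -0.44 with a Benjamini-Hochberg adjusted p of 0.658. HDAC6, the other class IIb deacetylase and its closest relative, had 2059, 2017, 1148 and 795 counts in the same library order, with log2 ratios of -0.06 [-0.15, 0.03] in K562 and -0.30 [-0.43, -0.17] in THP-1.

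HDAC10 and its upstream neighbour MAPK12, a p38 family kinase gene (ENSG00000188130, chr22:50245450-50261825, minus strand), overlap on the same strand. In GENCODE 29, 2763 of the 4951 exonic bases of HDAC10 (55.8%) are also exonic in MAPK12, and all of them belong to 1 of the 11 MAPK12 transcripts, a non-coding processed transcript that runs through the HDAC10 gene. The deposited counts of HDAC10 and MAPK12 were whole numbers in every library, so they show no fractional split of reads between the genes. To which gene the counting gave reads in the shared bases is not given in the sources used here, so the counts of both genes remain uncertain. MAPK12 gave 460 counts with DMSO and 205 with periplocin in K562, then 384 and 118 in THP-1, and it fell in both lines, by log2 ratios of -1.19 [-1.44, -0.95] and -1.47 [-1.78, -1.17]. HDAC10 counts per MAPK12 count stood at 0.887 [0.774, 1.02] in K562 DMSO, an interval that included equal counts. In the other libraries HDAC10 had the more counts, with ratios of 1.80, 2.09 and 3.51. With the counts of both genes added, the log2 ratio was -0.63 [-0.78, -0.47] in K562 and -0.92 [-1.08, -0.78] in THP-1. The interval of the sum excluded no change in K562, which that of HDAC10 alone did not. However, the sum includes all counts of MAPK12, which fell, and only 2763 of the 9424 exonic bases of MAPK12 (29.3%) are shared. The sum therefore cannot tell whether HDAC10 itself changed in K562. For the sum, the difference between the lines was -0.30 [-0.51, -0.09].

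The genes on either side of HDAC10 on chromosome 22 did not move as a block. MAPK11, another p38 kinase gene that starts 19.4 kb from HDAC10, fell in K562 from 235 to 29 counts (log2 ratio -3.04 [-3.65, -2.48]) and in THP-1 from 142 to 60, just past 2-fold (-1.01 [-1.47, -0.57]). TUBGCP6, a subunit gene of the gamma-tubulin ring complex on the other side, had a log2 ratio of 0.49 [0.35, 0.63] in K562 and of -0.75 [-0.87, -0.63] in THP-1. DENND6B was at 0.06 [-0.55, 0.68] in K562 and fell in THP-1, by -1.40 [-1.79, -1.02]. PLXNB2, PPP6R2, TRABD and SELENOO stayed within 2-fold in both lines, with log2 ratios between -0.15 and 0.51. Of the 8 neighbours, 2 fell in K562 and 3 in THP-1, beside 11.6% and 10.5% of all expressed genes, and none rose in either, beside 8.84% and 8.03%.

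**Figure D2:**
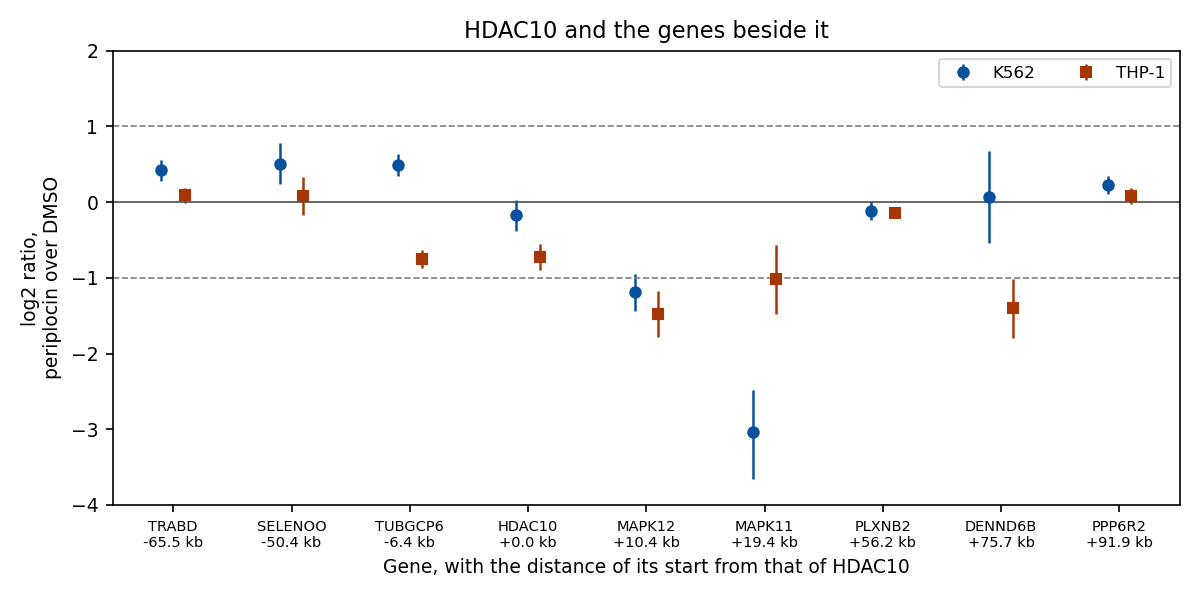
Log2 ratio of periplocin over DMSO for HDAC10 and its 8 neighbours in chromosome order, with the distance of each gene's start from that of HDAC10 in kb. Bars are 95% counting intervals and dashed lines mark 2-fold; MAPK12 and MAPK11 were below the lower one in both lines of cells, and TUBGCP6 lay on opposite sides of 0.

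The genes whose pattern over the 4 libraries was most like that of HDAC10 were sought among the 9775 genes that averaged 10 CPM or more, by the Euclidean distance of log2 CPM centred on each gene's mean. They were RPIA, an enzyme of the pentose phosphate pathway, at a distance of 0.035, MTERF4, a mitochondrial rRNA methylation partner, at 0.0472, and MAPK6, an atypical MAP kinase, at 0.0785. The median distance was 1.21. RPIA had 250, 221, 477 and 246 counts in the order of libraries given for HDAC10, so it too was highest in THP-1 DMSO. With only 4 libraries, likeness of this kind is a description and carries no test.

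ODC1, the first and rate-limiting enzyme of the pathway (ENSG00000115758, chr2:10439968-10448504, minus strand), gave 6549 counts with DMSO and 2574 with periplocin in K562. In THP-1 the same pair was 2497 and 626. It was higher in DMSO than in periplocin in each line, and K562 with periplocin, at 155 CPM, still lay above untreated THP-1, at 121 CPM. ODC1 fell by a log2 ratio of -1.37 [-1.44, -1.31] in K562, which is 2.59-fold, and of -1.77 [-1.89, -1.64] in THP-1, which is 3.40-fold. The THP-1 ratio was the lower by -0.39 [-0.53, -0.25]. Across the 4 libraries edgeR gave a log2 change of -1.56 with an unadjusted p of 0.00132 and an adjusted p of 0.359. DESeq2, fitted as an alternative, gave ODC1 an adjusted p of 0.00102. No gene of 13584 passed an adjusted p of 0.05 in edgeR (0%), while 1535 had an unadjusted p below 0.05 and DESeq2 called 125 of 11740 (1.06%).

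SRM, which makes spermidine from putrescine (ENSG00000116649, chr1:11054584-11060024, minus strand), had 1062 and 469 counts in K562 DMSO and periplocin, and 1070 and 320 in THP-1. The untreated lines were thus near each other, at 64.8 and 51.9 CPM, and both periplocin libraries lay below them, at 28.3 and 18.1 CPM. SRM fell by a log2 ratio of -1.21 [-1.37, -1.05] in K562 and of -1.51 [-1.70, -1.33] in THP-1. In the 4-library fit its log2 change was -1.35, with adjusted p values of 0.362 in edgeR and 0.0907 in DESeq2.

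ODC1 and SRM moved together, and their start regions are shown for the letters CACGTG, the canonical E-box read by MYC and other basic helix-loop-helix factors. The RefSeq promoter windows (GRCh38.p14) run from 250 bases before to 50 bases after a transcript start. Windows were at hand for 7 of the 10 genes, HDAC10, ODC1, AMD1, SRM, SMS, SAT1 and OAZ1, and the 6 letters, which read the same on both strands, were found in those of ODC1 and SRM. ODC1 had 2 windows and only the one of its downstream start, at chr2:10448012, held the letters. The window of MAPK12 held them as well. The letters were in 7.26% of all 35116 windows, and in a window of 13.0% of the 8814 genes expressed in both lines that had one. Each line below reads 5′ to 3′ on the minus strand with CACGTG in capitals.

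ODC1, chr2:10447993-10448052, in the first intron of the longest GENCODE 29 coding transcript, its last 20 bases following the downstream RefSeq start: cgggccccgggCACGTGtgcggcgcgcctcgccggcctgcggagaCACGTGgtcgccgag
SRM, chr1:11060178-11060247, upstream of the start: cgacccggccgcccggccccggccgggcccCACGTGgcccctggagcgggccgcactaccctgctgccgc

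A match of these letters is a description and not evidence of binding. MYC itself gave 5322 counts with DMSO and 2889 with periplocin in K562, and 5889 and 1024 in THP-1. Its log2 ratio was -0.91 [-0.97, -0.84] in K562, short of 2-fold, and it fell by -2.29 [-2.39, -2.20] in THP-1. Its part in the ODC1 and SRM values was not tested.

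The other synthesis genes stayed within 2-fold. AMD1 encodes S-adenosylmethionine decarboxylase (ENSG00000123505, chr6:110874770-110895713, plus strand) and had 1656 and 2367 counts in K562 DMSO and periplocin, and 4338 and 4265 in THP-1. It was the one synthesis gene above its DMSO level in both lines, with log2 ratios of 0.49 [0.40, 0.58] and 0.21 [0.14, 0.27]. The AMD1 messenger carries a short upstream reading frame, through which polyamines are known to repress its translation. RNA counts do not read that step, and the frame is shown for this reason. It is bases 27 to 47 of the longest coding AMD1 transcript in GENCODE 29, has 6 codons before its stop, and lies before the main start codon at base 337. Its start and stop codons are in capitals.

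AMD1 upstream reading frame: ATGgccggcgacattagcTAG

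SMS, spermine synthase (ENSG00000102172, chrX:21940573-21994835, plus strand), had 2071 and 1953 counts in K562 and 1213 and 781 in THP-1, DMSO first. Its log2 ratios were -0.11 [-0.20, -0.02] and -0.40 [-0.54, -0.27]. SRM and SMS perform like reactions in sequence, and their balance within a library does not depend on the scaling. SRM counts per SMS count stood at 0.513 with DMSO and 0.240 with periplocin in K562, and at 0.882 and 0.410 in THP-1. The ratio was lower with periplocin by 2.14-fold in K562 and by 2.15-fold in THP-1.

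**Figure D3:**
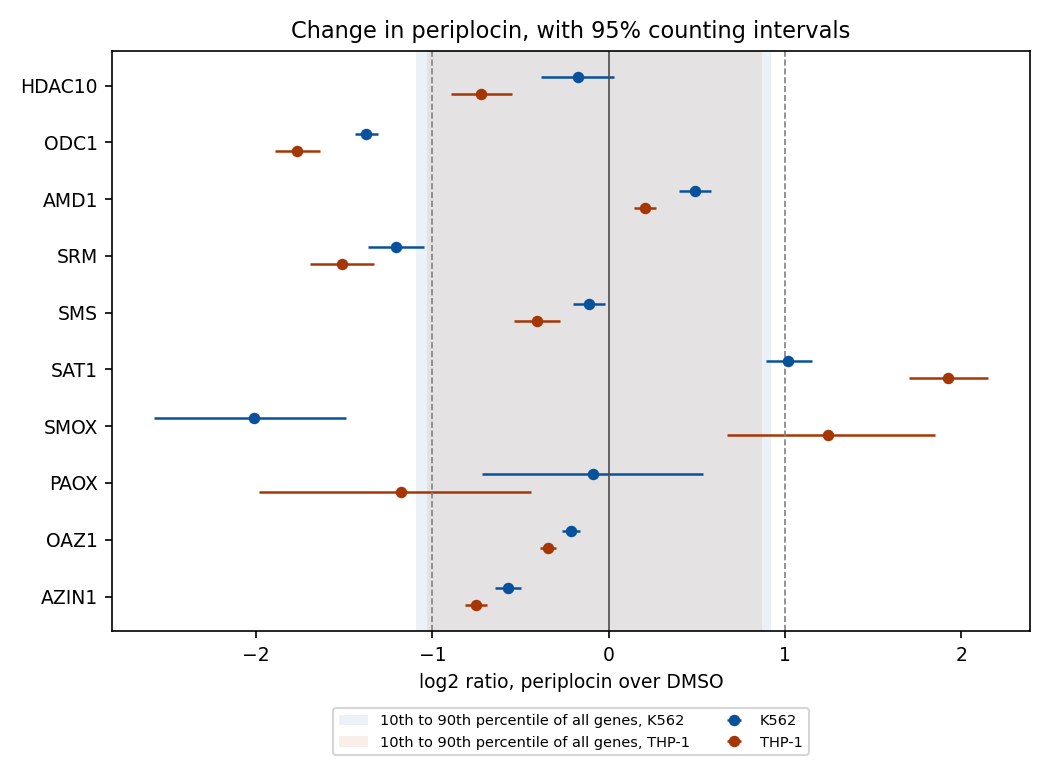
Log2 ratio of periplocin over DMSO for the 10 genes in K562 (blue) and THP-1 (brown), with 95% counting intervals. Shading spans the 10th to the 90th percentile of all expressed genes and dashed lines mark 2-fold; ODC1 and SRM were below the lower line and SAT1 above the upper line in both lines of cells.

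SAT1, the acetyltransferase that commits spermidine and spermine to breakdown or export (ENSG00000130066, chrX:23783173-23786226, plus strand), had 712 counts in K562 DMSO and 1471 in K562 periplocin. In THP-1 the counts were 217 in DMSO and 703 in periplocin. In CPM the order was K562 periplocin at 88.8, K562 DMSO at 43.5, THP-1 periplocin at 39.7 and THP-1 DMSO at 10.5. The log2 ratio in K562, 1.02 [0.89, 1.15], was just past the 2-fold line, and when mitochondrial genes were left out of the library totals it was 0.98. In THP-1 SAT1 rose by 1.93 [1.70, 2.15], or 3.80-fold. This ratio was the larger by 0.91 [0.65, 1.16]. Over the 4 libraries its log2 change was 1.48, with adjusted p values of 0.364 in edgeR and 0.101 in DESeq2.

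SMOX, spermine oxidase (chr20:4120980-4187747, plus strand), was the one gene of the 10 that passed 2-fold in opposite directions. In K562 it gave 147 counts with DMSO and 37 with periplocin, but in THP-1 38 with DMSO and 77 with periplocin. K562 DMSO was thus the highest library, and periplocin brought the lines to 2.23 and 4.35 CPM from 8.97 and 1.84 CPM. It fell by a log2 ratio of -2.01 [-2.58, -1.49] in K562 and rose by 1.25 [0.67, 1.85] in THP-1. The difference between the lines, 3.26 [2.49, 4.02], lay at the 99.2 percentile of the 10767 genes compared, and 1.3% of the 10779 genes expressed in both lines passed 2-fold in opposite directions. In the fit that assumes 1 change for both lines, edgeR gave SMOX a log2 change of -0.38 with an adjusted p of 0.902.

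PAOX, the peroxisomal oxidase of acetylated polyamines (chr10:133379234-133391694, plus strand), had 46, 44, 56 and 21 counts in the library order used for HDAC10. The first 3 libraries lay between 2.66 and 2.81 CPM and THP-1 periplocin at 1.19 CPM. Per kilobase of transcript, PAOX and SMOX were the lowest of the 10 genes in every library, PAOX at 1.51, 1.43, 1.46 and 0.64 CPM per kb and SMOX at 3.86, 0.96, 0.79 and 1.87. Its log2 ratio was -0.09 [-0.72, 0.54] in K562, too wide at this depth to tell a modest change from none, and it fell by -1.18 [-1.98, -0.44] in THP-1. Of the 2277 exonic bases of PAOX, 158 are shared on the same strand with AL360181.3.

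OAZ1, antizyme 1 (chr19:2269509-2273490, plus strand), had 6495 and 5705 counts in K562 and 10144 and 6807 in THP-1, DMSO first. Its log2 ratios were -0.21 [-0.27, -0.16] and -0.35 [-0.39, -0.30]. Per kilobase of the longest coding transcript it was the highest of the 10 genes in every library, at 345 and 300 CPM per kb in K562 and 428 and 335 in THP-1. Antizyme is made only when ribosomes shift frame at the UGA stop of its first reading frame, a step that polyamines stimulate and RNA counts do not read. The site is shown for this reason, from bases 269 to 298 of an OAZ1 transcript with a retained intron, with the codon before the stop and the stop in capitals. The longest coding transcript in GENCODE 29 holds these bases with 1 base left out, the T of the TGA stop at position 16 of the site.

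OAZ1 frameshift site: cctcggtggtgcTCCTGAtgcccctcaccc

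AZIN1, the antizyme inhibitor (chr8:102826357-102893864, minus strand), had 3442 and 2360 counts in K562 and 6685 and 3383 in THP-1, DMSO first. Its log2 ratios were -0.57 [-0.65, -0.49] and -0.75 [-0.81, -0.69], lower with periplocin in each line and short of 2-fold. Counts of ODC1 per count of OAZ1, which carry no scaling, were 1.01 with DMSO and 0.451 with periplocin in K562, and 0.246 and 0.0920 in THP-1. This ratio was lower with periplocin by 2.23-fold and 2.68-fold. OAZ1 shares 220 exonic bases with AC005258.1 on the same strand and 236 with JSRP1 on the opposite strand, and AZIN1 shares 344 with its antisense gene AZIN1-AS1, and whether strand was used in counting is not given in the sources used here. The ratio of AZIN1 to OAZ1 varied less, from 0.414 to 0.659 over the 4 libraries.

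Counts of the first breakdown enzyme against the first synthesis enzyme, SAT1 per ODC1, were 0.109 with DMSO and 0.571 with periplocin in K562, and 0.0869 and 1.12 in THP-1. The untreated lines lay near each other, although each gene on its own was lower in THP-1. The ratio was higher with periplocin by 5.26-fold in K562 and by 12.9-fold in THP-1. Like the other ratios within a library, it restates the changes of its genes given above and is no separate result. These ratios compare counts and not molecules, since the transcripts differ in length.

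**Figure D4:**
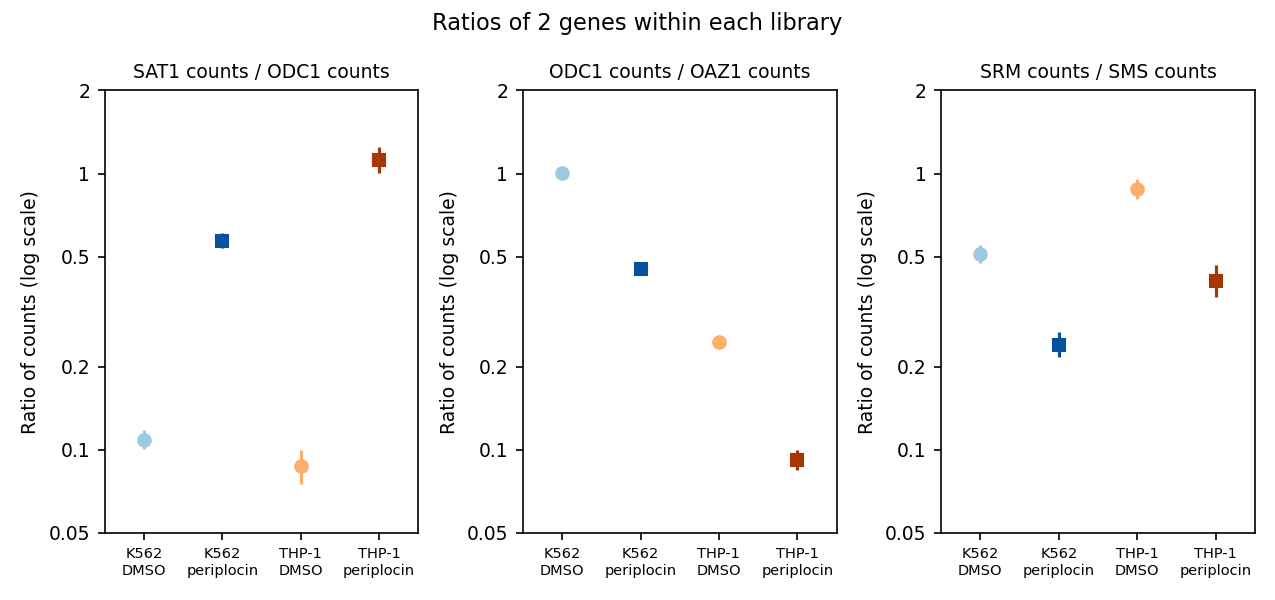
Ratio of the counts of 2 genes within each library (log axis), with 95% counting intervals. SAT1 over ODC1 was higher, and ODC1 over OAZ1 and SRM over SMS lower, with periplocin in both lines.

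Without treatment, THP-1 and K562 differed by at least 2-fold in 4 of the 10 genes, beside 43.9% of 12845 expressed genes (22.8% higher and 21.1% lower in THP-1). The counting interval excluded no difference for 9 of the 10, and for 87.5% of all. AMD1 was higher in THP-1, by a log2 ratio of 1.18 [1.10, 1.26]. ODC1, SAT1 and SMOX were lower in THP-1, by -1.60 [-1.67, -1.54], -1.92 [-2.15, -1.70] and -2.16 [-2.72, -1.64]. SMS, at -0.98 [-1.09, -0.88], lay beside the 2-fold line, and PAOX, at 0.07 [-0.52, 0.67], could not be told apart between the lines. Scaling by library totals in place of TMM moved the median of all genes in this comparison by -0.12, and SMS then passed 2-fold at -1.10. Per kilobase, the 3 highest of the 10 genes in K562 DMSO were OAZ1, ODC1 and SMS, at 345, 151 and 68.8 CPM per kb. In THP-1 DMSO they were OAZ1, AZIN1 and AMD1, at 428, 68.7 and 61.2 CPM per kb.

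Of 32 further genes around the pathway, 21 were expressed in K562 and 23 in THP-1. In K562, 3 of them rose and 3 fell, with a median log2 ratio of -0.01, and in THP-1 4 rose and 3 fell, with a median of -0.02. Over all expressed genes 20.4% and 18.5% passed 2-fold in either direction. SAT2, a relative of SAT1, rose from 26 to 78 counts in K562 (1.55 [0.90, 2.26]), and in THP-1 it rose from 35 to 76 (1.35 [0.75, 1.97]). The third gene of that family, SATL1, had 1 count in K562 DMSO and 0 in the others, where 0 counts allow up to 0.181, 0.145 and 0.169 CPM.

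All 4 expressed genes of arginine and ornithine supply passed 2-fold in K562, 1 upward and 3 downward, and 3 of 5 did so in THP-1, 1 upward and 2 downward, beside 20.4% and 18.5% of all expressed genes. ASL, which makes arginine from argininosuccinate, went from 250 down to 75 counts in K562 (-1.76 [-2.16, -1.39]), and THP-1 showed a fall from 592 to 66 (-2.93 [-3.32, -2.57]). ASS1, the step before it, fell in K562 from 1362 to 573 counts (-1.28 [-1.42, -1.13]) and was at 4341 and 3637 counts in THP-1 (-0.02 [-0.09, 0.04]). OAT, which interconverts ornithine and glutamate semialdehyde, rose from 4558 to 13590 counts in K562 (1.55, counting SE 0.025) and had 1271 and 913 in THP-1 (-0.25 [-0.37, -0.12]). The arginase gene ARG2, whose product releases ornithine from arginine, fell in K562 from 694 to 303 counts (-1.22 [-1.42, -1.03]), and in THP-1 it rose from 18 to 37 (1.26 [0.42, 2.17]). Like SMOX, ARG2 was high in K562 DMSO and low in THP-1 DMSO. ARG1 had 0 counts in every library. AGMAT, named for the hydrolysis of agmatine, had 1 and 3 counts in K562, and it fell from 190 to 21 in THP-1 (-2.94 [-3.67, -2.29]).

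Of the 8 genes that supply methionine carbon or recycle methylthioadenosine, 7 were expressed in each line. ENOPH1, a salvage enzyme, fell in THP-1 from 1227 to 476 counts (-1.14 [-1.29, -0.98]) and had 781 and 695 counts in K562. MTAP, which performs the first salvage step, had 4, 12, 11 and 10 counts, below 1 CPM in all 4 libraries. All 4 genes of hypusine formation, in which spermidine modifies the translation factor eIF5A, were within 2-fold. EIF5A had log2 ratios of -0.07 [-0.13, -0.01] and -0.51 [-0.61, -0.42], and DHPS, the enzyme that uses spermidine, of 0.24 [0.09, 0.39] and -0.68 [-0.83, -0.54].

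Among 9 transport genes, SLC18B1, a vesicular polyamine transporter, rose from 506 to 1371 counts in K562 (1.41 [1.26, 1.56]) and had 1 and 0 counts in THP-1. SLC12A8 rose from 56 to 132 counts in THP-1 (1.47 [1.01, 1.95]) and had 7 and 2 in K562. The lysosomal polyamine exporter gene ATP13A2 was within 2-fold, at -0.61 [-0.77, -0.46] and -0.37 [-0.55, -0.19]. SLC22A2 and SLC22A3 had 0 counts in every library. ATP13A4 had 0, 2, 4 and 1 counts. In the antizyme family, OAZ3 rose from 13 to 32 counts in THP-1 (1.52 [0.56, 2.58]) with 16 and 12 in K562, and AZIN2 had 3, 1, 4 and 17 counts.

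**Figure D5:**
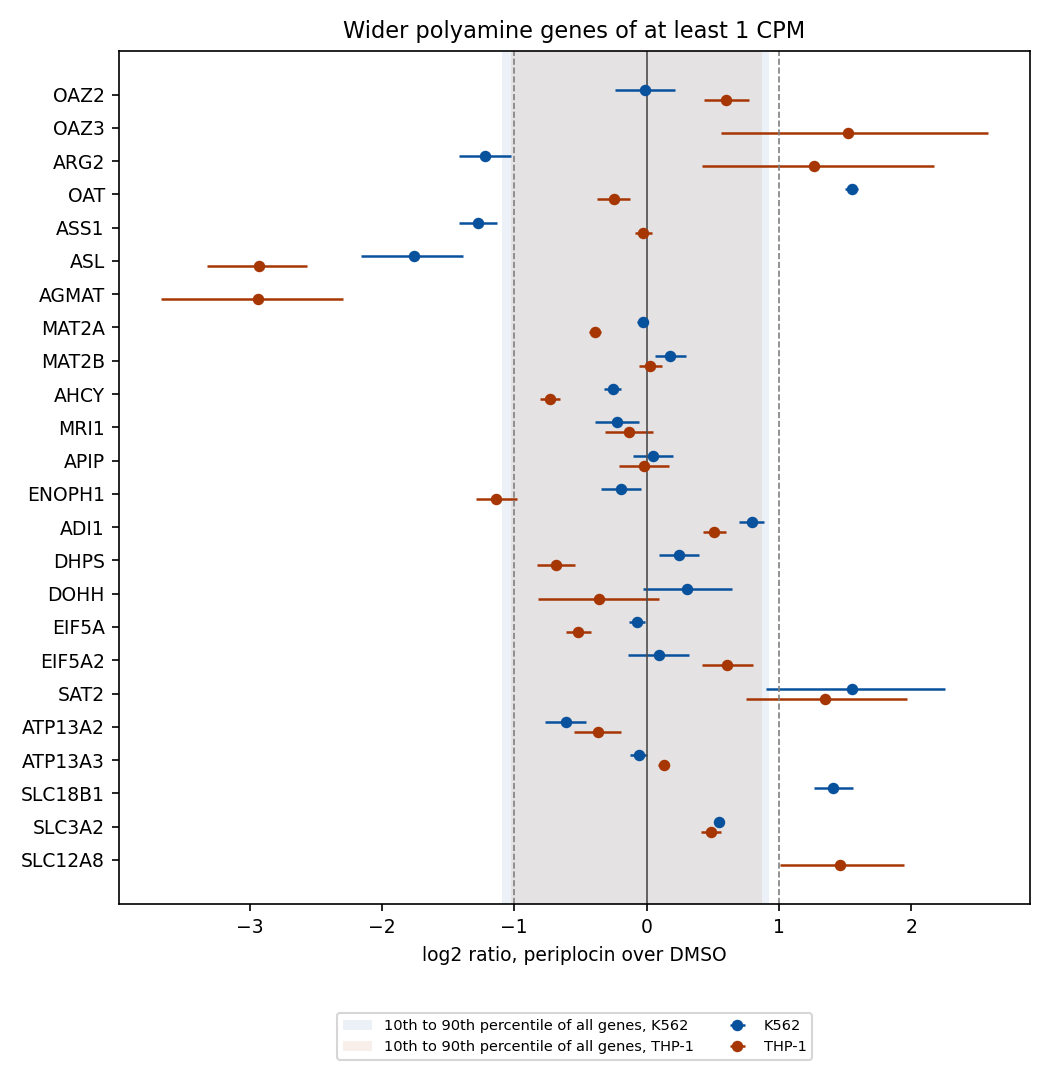
Log2 ratio of periplocin over DMSO for the wider polyamine genes, each shown for a line only where its mean was at least 1 CPM, with 95% counting intervals. Shading spans the 10th to the 90th percentile of all expressed genes; ASL fell and SAT2 rose in both lines, and ARG2 moved in opposite directions.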

How the data were processed

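RNA was oligo(dT) selected, and libraries were made with a NEBNext Ultra kit. The submitters' processing notes name HISAT2, StringTie 1.3.1 and hg38. The counting program and its annotation are not given in the sources used here. The methods and labels name different sequencers. The titles call the controls blank, and the library names call them DMSO. The authors deposited 1 table of expected counts, of which 87.4 to 88.3% were whole per library; they were rounded. Totals were 16381149 (K562 DMSO), 16560522 (K562 periplocin), 20622694 (THP-1 DMSO) and 17721490 (THP-1 periplocin).

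Symbols matched 20310 of 20348 identifiers, and coordinates are from GENCODE 29 (GRCh38). Within a pair, counts were scaled by TMM (edgeR 4.0.16, R 4.3.3), with a prior count of 0.125. Differences between lines have intervals from added counting variances. The 4-library fit kept genes with at least 10 counts in 2 libraries and was repeated with DESeq2 1.42.0. Scripts were tested on simulated counts. A limit for 0 counts is 3 counts of the total.

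The members and lists were chosen with earlier results of these data known. Named were the 10 members in every library, wider-list genes that passed 2-fold or had 3 counts or fewer, HDAC6, 8 neighbours, MYC, and the 3 genes nearest HDAC10. Some values these rules cover are not reported here. Alternatives tried were other scalings, prior counts, filters, fold thresholds, assumed dispersions and the sum of HDAC10 and MAPK12.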

Additional observations from a re-analysis of the deposited data

Results flagged for a closer look

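Both results here are log2 ratios of periplocin over DMSO that passed 2-fold in opposite directions in the 2 lines. Other listed genes had opposite signs without passing 2-fold in both, such as OAT at 1.55 in K562 and -0.25 in THP-1. SMOX, spermine oxidase, was lower with periplocin in K562 and higher in THP-1, and the THP-1 log2 ratio was above the K562 ratio by 3.26. ARG2, an arginase gene, showed the same arrangement with a difference of 2.49. With 1 library per condition the difference was not tested for either gene, and its interval covers counting error only. The lower counts behind them were 37 and 38 for SMOX and 18 and 37 for ARG2.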

How the results depend on the processing

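Pairing by replicate was not possible, because each condition had 1 library and the labels give no replicate numbers to pair by. For the same reason no replicate could be left out. The 4-library fit paired libraries by line only. Of 233 alternative values for single members or for the sum of HDAC10 and MAPK12, 13 moved by more than counting error. Those were the sum within each line and, between the untreated lines, members scaled by library totals with or without mitochondrial genes. A further 1, the DESeq2 change of ODC1, passed the threshold at -1.55. PAOX between the untreated lines, whose interval included no difference, changed sign from 0.07 to -0.05 under both scalings by library totals. With a mean of at least 5 CPM required, SMOX and PAOX left the THP-1 comparison, and members past 2-fold there went from 5 to 3. Members that differed by 2-fold between the lines went from 2 to 0. All genes past 2-fold went from 2285 to 1479 in THP-1 and from 2233 to 1501 in the difference. How many genes met this filter is not reported here, so these numbers give no share. With at least 1 count, all genes past 2-fold numbered 5172 in K562, 4794 in THP-1, 8626 between the untreated lines and 3539 in the difference. With a 1.5-fold threshold they numbered 4869 in K562, 4747 in THP-1, 7922 between the untreated lines and 4519 in the difference. Members past 1.5-fold between the untreated lines numbered 7 of 10, beside those 7922 of 12845 expressed genes. The 4-library fit called 0 genes by edgeR, 125 by DESeq2 and 1 by edgeR with at least 1 count.

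Counting error leaves out the spread between cultures, which 1 library per condition cannot give. With an assumed dispersion of 0.04 added, intervals excluded no change for 4 members in K562, 5 in THP-1, 5 between the untreated lines and 1 in the difference. With 0.16 the numbers were 1, 2, 3 and 1. SMOX was the member left in the difference under both. Shares of all expressed genes were not computed at these dispersions, so the numbers say nothing about the polyamine genes in particular.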
